A study of Mus musculus with 8 samples.

Results

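The genes examined here encode plasminogen activators, their cell surface receptor, matrix metalloproteinases and the tissue inhibitors of those proteases. They are Plau, Plaur, Plat, Mmp2, Mmp3, Mmp14, Timp1, Timp2 and Timp3. A row of the deposited table, that is, the summarized value of 1 probe set, was taken as a member when the platform annotation named only 1 of these 9 genes. In all, 119 of 641130 rows were members, and 307991 rows of the series named a single gene. Of the 119 rows 106 passed a filter on dim rows, which kept rows with a mean log2 intensity of at least 2.35, the median of the table. Each of the 9 genes kept between 7 and 18 rows, and these were averaged on the log2 scale to give 1 value per gene and array. The same steps gave values for 18944 genes.

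Primary mouse embryonic fibroblasts, connective tissue cells bought as a commercial preparation, were grown on 100 mm dishes and then kept for 24 h at 1% oxygen (hypoxia) or under atmospheric oxygen (normoxia). The medium was high-glucose DMEM with 10% serum, at 37 °C and 5% CO2, and genotype, mouse strain and age of the embryos were not given in the sources used here. RNA was hybridised to 8 Mouse Exon 1.0 ST arrays, 4 for each condition, whose probe sets are mostly directed at single exons. The text of the study states more biological replicates per condition than the labels list, and the 4 of the labels were used.

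Plasminogen activators are serine proteases that turn plasminogen into plasmin, which cuts fibrin and many matrix proteins. Urokinase (Plau) acts mainly at the cell surface, bound to its receptor (Plaur), whereas tissue-type activator (Plat) is best known for dissolving clots. Matrix metalloproteinases are zinc enzymes made as inactive precursors, some of which plasmin can activate, and TIMPs bind to their active sites and block them. Fibroblasts are a major source of these proteins in connective tissue, where the balance of protease and inhibitor sets how fast collagen and other matrix is removed.

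The comparison asked whether 24 h of low oxygen changed the mRNA levels of these proteases and inhibitors. By limma, with Benjamini-Hochberg adjustment over all 18944 genes, 0 of the 9 genes were called higher or lower at 0.05, while 1.32% of all genes were called (0.528% higher, 0.797% lower). At an unadjusted p under 0.05, Mmp3 and Plat were on the higher side and Plau, Plaur and Mmp2 on the lower side, that is 2 and 3 of the 9 genes, against 3.05% and 20.3% of all genes. Mmp3 had the largest difference, with a log2 fold change (hypoxia over normoxia) of 0.61 ± 0.17 (SE), and Plaur the largest on the lower side, with -0.54 ± 0.20. The inhibitors Timp1, Timp2 and Timp3 lay between 0.01 and 0.14. The gene values past the filter were shifted downward as a whole, with a median log2 fold change of -0.19 over all genes and positive values in 24.4%. The shift was not seen over all rows of the table (median 0.016), and it was -0.046 for gene values with no filter. Relative to the median of -0.19 Plau stood at -0.26, Plaur at -0.35 and Mmp2 at -0.16, while Plat stood at 0.48 and Mmp3 at 0.80.

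**Figure D1:**
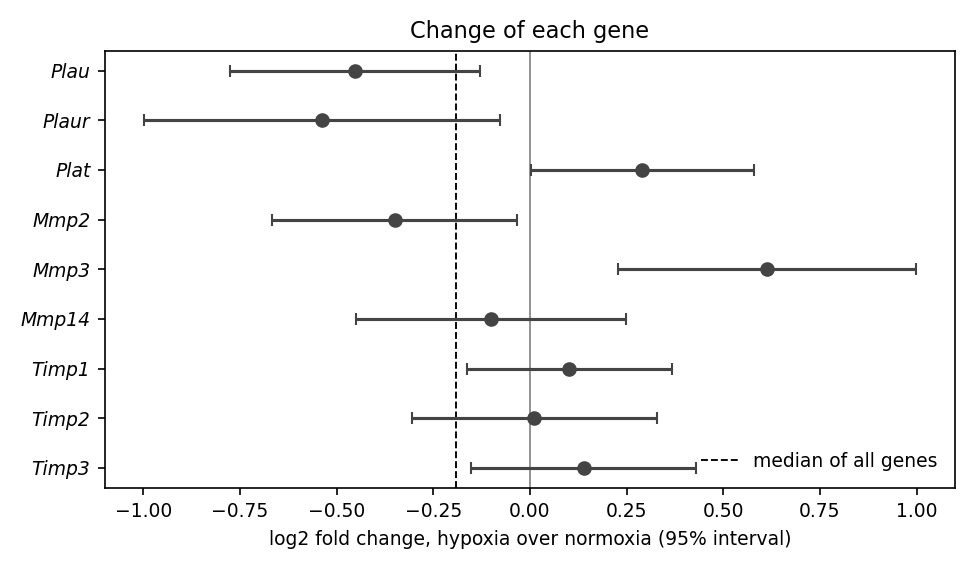
Log2 fold change of each gene (hypoxia over normoxia, n = 4 arrays per group) on the x axis, with bars for the 95% interval of the limma fit and a dashed line at the median of all genes, -0.19. The intervals of Plau, Plaur and Mmp2 lie below 0 and reach across the dashed line, those of Plat and Mmp3 lie above 0, and those of Mmp14 and the TIMPs span 0.

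Promoter sequence was found in the RefSeq table of GRCm38.p6 for 6 of the 9 genes (Plaur, Mmp3, Mmp14, Timp1, Timp2 and Timp3). The 250 bases upstream of the annotated start are shown for Mmp3 and Plaur, which had the largest differences in opposite directions, and for Timp1, an inhibitor with a small difference. These were picked after their values had been seen. Capitals mark the letters TGACTCA or TGAGTCA, which are the binding sequence of the AP-1 factors (Fos and Jun proteins) and each other's reverse complement, and ACGTG or GCGTG, the core of the hypoxia response element, on either strand.
Mmp3, chr9:7445572-7445821, plus strand: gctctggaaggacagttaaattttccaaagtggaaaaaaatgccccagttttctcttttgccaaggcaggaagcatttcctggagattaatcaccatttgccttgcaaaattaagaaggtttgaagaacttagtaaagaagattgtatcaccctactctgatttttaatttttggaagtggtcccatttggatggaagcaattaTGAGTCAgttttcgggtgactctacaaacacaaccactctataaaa
Plaur, chr7:24462233-24462482, plus strand: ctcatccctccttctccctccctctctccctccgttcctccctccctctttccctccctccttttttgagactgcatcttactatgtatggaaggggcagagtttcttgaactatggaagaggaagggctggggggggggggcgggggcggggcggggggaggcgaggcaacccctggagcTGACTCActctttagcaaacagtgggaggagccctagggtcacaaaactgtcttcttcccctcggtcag
Timp1, chrX:20869916-20870165, plus strand: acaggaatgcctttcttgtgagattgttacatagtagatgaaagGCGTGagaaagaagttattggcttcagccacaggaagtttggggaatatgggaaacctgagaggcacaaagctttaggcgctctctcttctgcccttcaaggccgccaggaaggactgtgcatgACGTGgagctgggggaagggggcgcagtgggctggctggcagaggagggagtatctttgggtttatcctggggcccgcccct
Both Mmp3 and Plaur held the AP-1 letters once, starting 46 and 69 bases before the start of the gene, and no hypoxia core, whereas Timp1 held the hypoxia core at 2 places and no AP-1 letters. Mmp14, Timp2 and Timp3 each held 1 hypoxia core and no AP-1 letters. No match overlapped another in the windows shown. Over 32851 promoter windows of the same length the AP-1 letters were found in 4.46% and the hypoxia core in 38.6%. Mmp3 and Plaur were picked for fold changes of opposite sign, so their shared AP-1 letters say nothing about direction. Any link between the letters and the fold changes was not tested. A match of letters is a description of the window, not a binding site.

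The activators and their receptor differed in direction. Plau, the urokinase gene, had log2 intensities of 6.06, 6.41, 6.41 and 6.23 on normoxia replicates 1 to 4 and of 6.03, 5.82, 5.89 and 5.57 on the hypoxia replicates. All hypoxia arrays lay below all normoxia arrays, but the nearest arrays almost touched, and 14.4% of all genes were separated in this direction. The means were 6.28 ± 0.17 (SD, n = 4) and 5.83 ± 0.19, a log2 fold change of -0.45 ± 0.14 (SE) with a 95% interval from -0.77 to -0.13 (limma adjusted p = 0.12). Every one of its 12 rows had a negative fold change, from -0.82 to -0.07. Only 34.5% of all rows tested had positive fold changes, so negative rows were the common case. The 12 rows are measured on the same arrays and are not independent of each other.

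Plaur, the receptor that holds urokinase at the cell membrane, was even on the normoxia arrays, with 5.54, 5.70, 5.73 and 5.61, and spread on the hypoxia arrays, with 5.07, 5.08, 5.66 and 4.61. Hypoxia replicate 3 lay inside the normoxia range and the other hypoxia arrays lay below it, so the SD was 0.43 in hypoxia against 0.09 in normoxia. The log2 fold change was -0.54 ± 0.20 (95% interval -0.999 to -0.08, limma adjusted p = 0.16). Without hypoxia replicate 3 it was -0.72 (adjusted p = 0.095), and without hypoxia replicate 4 it was -0.37 (adjusted p = 0.26). All 8 rows past the filter had negative fold changes, from -1.05 to -0.26, whereas 2 of its 3 dim rows had positive ones.

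Plat, the tissue-type activator, had values of 5.10, 5.27, 5.25 and 5.03 in normoxia and of 5.56, 5.37, 5.63 and 5.27 in hypoxia. The groups touched, since hypoxia replicate 4 lay just below normoxia replicate 2. The log2 fold change was 0.29 ± 0.13 (95% interval 0.0023 to 0.58, limma adjusted p = 0.21), and 16 of its 18 rows had positive values, up to 0.83. Positive values were seen in 34.5% of all rows tested. The activators Plat and Plau thus lay on opposite sides of 0, although limma called neither and the difference between the genes was not tested.

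**Figure D2:**
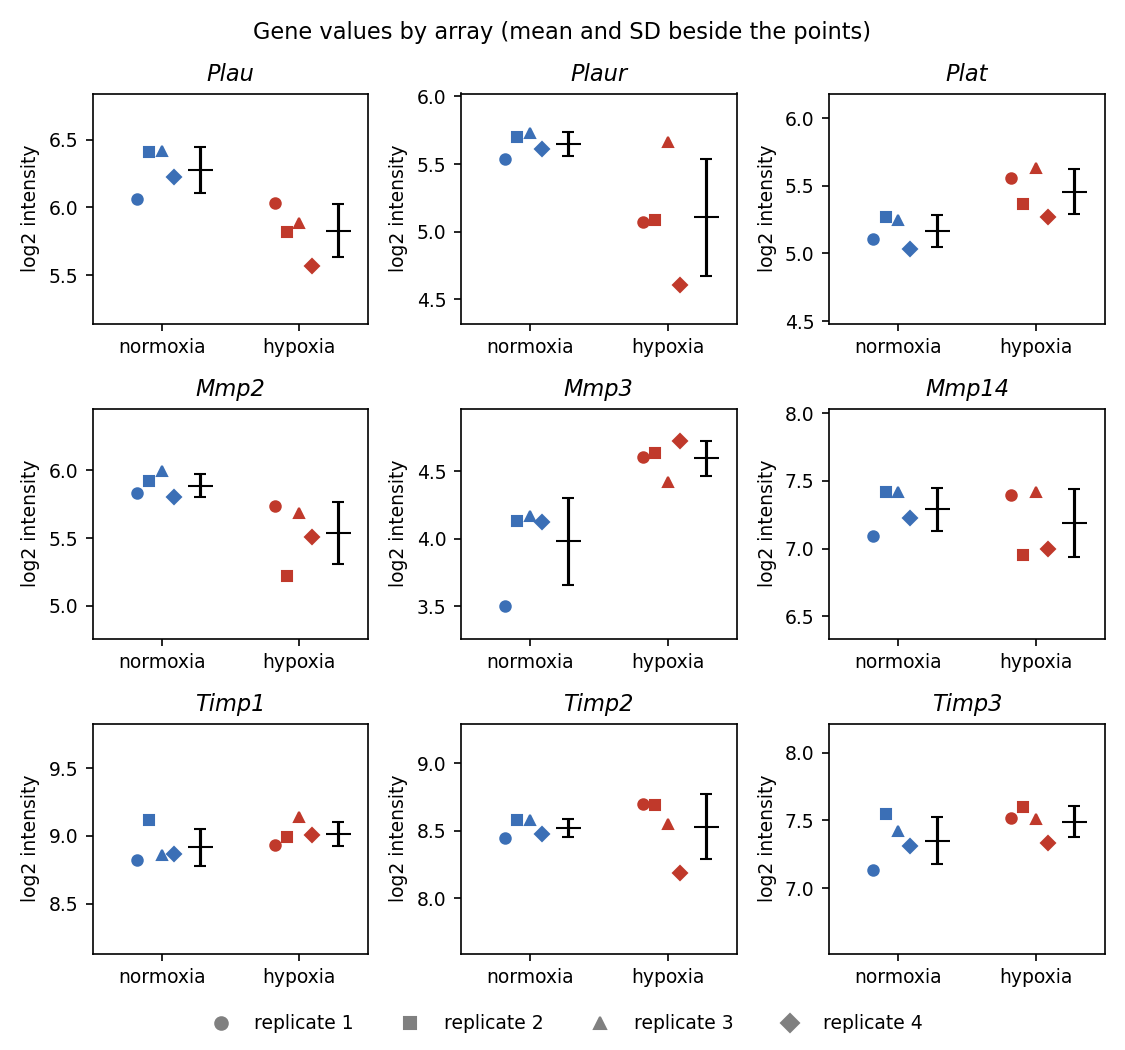
Gene values (mean log2 intensity of the rows of a gene, y axis) on the 4 normoxia and 4 hypoxia arrays, with a symbol for each replicate number and the mean ± SD beside the points. Every panel spans the same range of log2 intensity, and the groups are apart in Plau, Mmp2 and Mmp3 only.

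Among the metalloproteinases, Mmp3 (stromelysin 1, which cuts proteoglycans and several matrix glycoproteins and can activate other metalloproteinases) had values of 3.50, 4.13, 4.17 and 4.12 in normoxia and of 4.60, 4.63, 4.42 and 4.72 in hypoxia. All hypoxia arrays lay above all normoxia arrays, as in 1.86% of all genes, and Mmp3 was the only one of the 9 genes separated this way. Normoxia replicate 1 stood well below the other normoxia arrays. The means were 3.98 ± 0.32 (SD, n = 4) and 4.59 ± 0.13, which corresponds to a fold of 1.53 (log2 fold change 0.61 ± 0.17, 95% interval 0.23 to 0.999, limma adjusted p = 0.10). Without normoxia replicate 1 the log2 fold change was 0.45 (adjusted p = 0.15).

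The signal of Mmp3 was dim. Its normoxia mean was above that of 80.2% of 293 smell and pheromone receptor genes, which fibroblasts are not known to use and which serve here as a measure of background. Among the other members this share was lowest for Plat (93.2%) and Plaur (94.9%). Of the 14 rows of Mmp3, 9 passed the filter, and 8 of these had positive fold changes, up to 1.24. The median of the 9 fold changes was 0.73. When the gene value was instead the median of its rows on each array, the log2 fold change was 0.40 (adjusted p = 0.39). The brightest of them, at a mean of 5.61, read 4.39, 5.31, 5.39 and 5.90 in normoxia and 5.98, 6.30, 5.65 and 5.96 in hypoxia. In this row hypoxia replicate 3 fell inside the normoxia range. The 5 dim rows were also positive, from 0.02 to 0.64.

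Mmp2 (gelatinase A, a secreted enzyme that cuts denatured collagen and basement membrane collagen) had values of 5.83, 5.92, 5.99 and 5.80 in normoxia and of 5.74, 5.22, 5.69 and 5.51 in hypoxia. The groups were separated by a small margin, with hypoxia replicate 2 the lowest. The log2 fold change was -0.35 ± 0.14 (95% interval -0.67 to -0.03, limma adjusted p = 0.18). Of its 17 rows 14 had negative values, where 34.5% of all rows tested were positive. In 5 rows all hypoxia arrays lay below all normoxia arrays, against 6.75% of all rows tested. The row with the largest difference, -0.92, read 6.64, 6.80, 6.73 and 6.53 in normoxia and 6.19, 4.78, 6.41 and 5.64 in hypoxia. That row was one of the 5, and its hypoxia arrays were far more spread than its normoxia arrays.

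Mmp14, the membrane-anchored protease that activates the Mmp2 precursor together with Timp2, had values of 7.10, 7.42, 7.42 and 7.23 in normoxia and of 7.39, 6.95, 7.41 and 6.998 in hypoxia. The hypoxia arrays split, with replicates 1 and 3 at the top of the normoxia range and replicates 2 and 4 below it. The log2 fold change was -0.10 ± 0.15 (95% interval -0.45 to 0.25, limma adjusted p = 0.72), and 8 of its 13 rows were negative. Relative to the median of all genes it lay at 0.09, so its sign depends on the scaling.

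The inhibitors had small differences. Timp1 had values of 8.82, 9.11, 8.86 and 8.86 in normoxia and of 8.93, 8.99, 9.14 and 9.01 in hypoxia, with normoxia replicate 2 well above the other normoxia arrays. Its log2 fold change was 0.10 ± 0.12, with a 95% interval from -0.16 to 0.37 and overlapping groups, and it was 0.17 without normoxia replicate 2 and 0.061 without hypoxia replicate 3. Timp2 had values of 8.45, 8.58, 8.58 and 8.48 in normoxia and of 8.70, 8.69, 8.55 and 8.19 in hypoxia. Here the hypoxia arrays lay on both sides of the normoxia arrays, with a log2 fold change of 0.01 ± 0.14 (95% interval -0.31 to 0.33) that turned negative (-0.068) with the median of its rows. Timp3, which unlike the other TIMPs stays bound to the matrix, had values of 7.13, 7.55, 7.42 and 7.31 in normoxia and of 7.52, 7.60, 7.51 and 7.33 in hypoxia. Its log2 fold change was 0.14 ± 0.13 (95% interval -0.15 to 0.43), with overlapping groups, and it was 0.066 without normoxia replicate 1. The limma adjusted p values of Timp1, Timp2 and Timp3 were 0.62, 0.97 and 0.53, and each lay 0.20 to 0.33 above the median of all genes.

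Single rows of the inhibitors pointed both ways. Of the 10 rows of Timp2, 5 were positive and 5 negative, and the extremes were separated in opposite directions. One Timp2 row read 9.05, 8.96, 8.99 and 8.89 in normoxia and 9.12, 9.56, 9.21 and 9.15 in hypoxia, and another read 10.14, 9.92, 10.05 and 10.11 in normoxia and 9.84, 9.65, 9.81 and 9.36 in hypoxia. Neither row was called, and the order of these rows along the gene is not known here. In Timp3 the row with the highest fold change among those past the filter, 0.55, was separated upward, from 6.95 to 7.48 in normoxia and from 7.52 to 7.92 in hypoxia. The remaining Timp3 rows past the filter overlapped between the groups. In the RefSeq gene table Timp1 overlaps Syn1, Timp2 overlaps Cep295nl, Timp3 overlaps Syn3 and Mmp2 overlaps Gm45472, and rows that named more than 1 gene were left out.

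Over all rows, 0 of the 106 member rows were called when limma was fitted to the 191376 rows that named 1 gene and passed the filter, where 0.179% were called (0.146% higher and 0.0334% lower). Without adjustment 5 member rows were higher and 6 lower at 0.05, against 3.37% and 10.2% of those rows. The groups did not overlap in 3 rows on the higher side and 7 on the lower side, against 2.24% and 6.75%. The lowest adjusted p of a member row was 0.25, for a row of Mmp3.

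**Figure D3:**
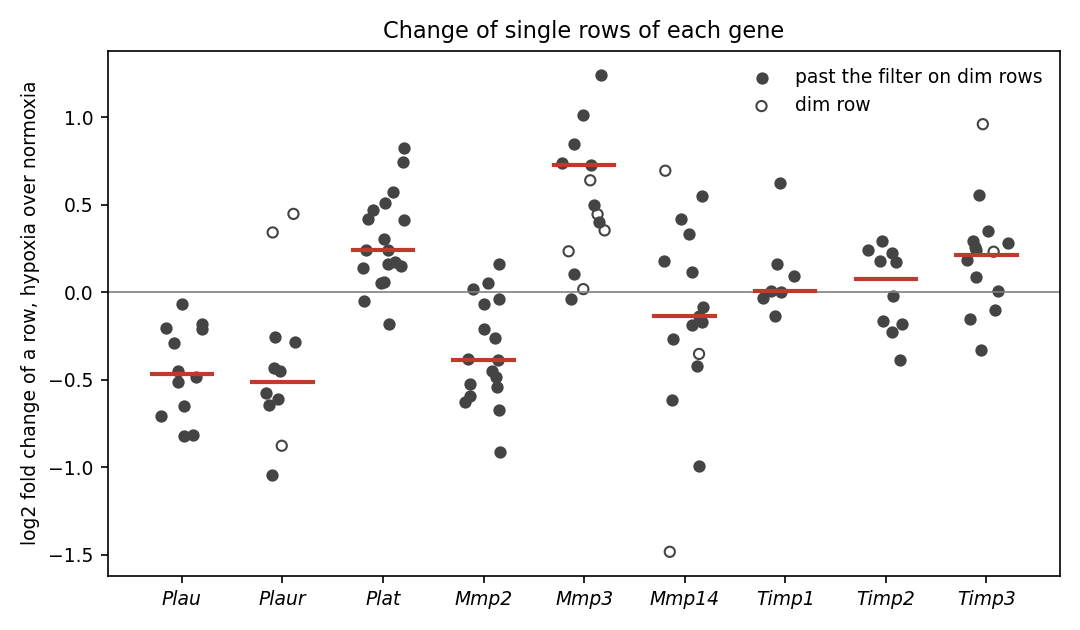
Log2 fold change (hypoxia over normoxia, y axis) of each of the 119 rows by gene, with filled points for rows past the filter on dim rows, open points for dim rows and a red line at the median of the filled points. All filled points of Plau and Plaur lie below 0, 8 of 9 of Mmp3 lie above it, and the points of Mmp14 and the TIMPs lie on both sides.

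Normoxia replicate 1 was the lowest normoxia array in 7 of the 9 genes, while it was lowest in 30.2% of all genes. Hypoxia replicate 4 was the lowest hypoxia array in 5 of the 9, against 29.1% of all genes. After the group means were taken out, Plat and Mmp14 moved together most closely over the 8 arrays (Pearson r = 0.90), and Plaur and Mmp3 were least alike (r = -0.21), a description that rests on arrays which the genes share. The pattern of Mmp3 over the 8 arrays was compared with the group means left in. Among genes with at least 3 rows it was most like that of Ubxn1 (r = 0.97), Sulf1 (r = 0.95) and Ifi202b (r = 0.95). With the group means taken out these r values were 0.92, 0.85 and 0.84. Of these 3 genes limma called Ifi202b, an interferon-inducible gene, which rose by 1.30 on the log2 scale (adjusted p = 0.040).

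As for the cells, 10 of 11 fibroblast markers lay above the 95th percentile of the receptor genes (5.36), and no tested marker of blood and macrophages, endothelium, epithelium, nerve or muscle, fat and cartilage did. Macrophages also make urokinase receptor and several metalloproteinases. In log2, the summed level of 8 macrophage and blood markers ran from 6.82 to 7.16 in normoxia and from 6.46 to 7.19 in hypoxia. None was called. All of these markers but Hbb-b1 (0.07) had negative log2 fold changes, from -1.18 (Lyz2, limma adjusted p = 0.083) to -0.11 (Adgre1). The part of such cells in the Plaur values was not tested. The epithelial keratin Krt19 was the single marker that rose (log2 fold change 1.48, limma adjusted p = 0.0049), whereas the other 6 epithelial markers were uncalled with negative log2 fold changes (-0.41 to -0.08). The summed level of the 7 ran from 6.22 to 6.84 in normoxia and from 6.46 to 6.55 in hypoxia, and the part of epithelial cells in the values above was not tested. In bulk RNA fewer cells of a type and less RNA per cell cannot be told apart. Between arrays the correlation over all rows was 0.923 to 0.944 within normoxia, 0.859 to 0.878 within hypoxia and 0.876 to 0.905 between the groups. The interquartile range of log2 intensity was narrower on every hypoxia array (2.51 to 2.61) than on every normoxia array (2.77 to 2.90), and its part in the differences was not tested.

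The wider family was taken from 7 lists of proteases, inhibitors and partners, which include the 9 genes. Of 99 genes tested 1 rose and 2 fell, where 0.528% and 0.797% of all genes did, and the list's median log2 fold change was -0.11, against -0.19 for all genes. The gene that rose was Bsg (basigin, also called EMMPRIN, a membrane glycoprotein known for inducing metalloproteinases in neighbouring fibroblasts and for carrying lactate transporters to the cell surface). Its values were 7.54, 7.503, 7.62 and 7.53 in normoxia and 8.34, 8.42, 8.43 and 8.44 in hypoxia, which were tight within each group and far apart. Bsg rose by 0.86 ± 0.10 on the log2 scale (95% interval 0.63 to 1.09, limma adjusted p = 0.0064), and it stayed past the threshold without any 1 of the arrays (adjusted p from 0.018 to 0.039). With the replicate number as a block it missed the threshold (adjusted p = 0.094), as it did on relative ranks (adjusted p = 0.18).

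The genes that fell were Prss23, a secreted serine protease, and Adam23, a member of the ADAM family that lacks protease activity. Prss23 read 7.77, 7.89, 7.88 and 7.80 in normoxia and 7.10, 7.25, 7.002 and 6.89 in hypoxia, and fell by 0.77 (SE 0.12, limma adjusted p = 0.023). Adam23 read 5.03, 5.08, 5.15 and 5.01 in normoxia and 4.45, 4.61, 4.54 and 4.29 in hypoxia, and fell by 0.59 (SE 0.11, limma adjusted p = 0.047). In both genes the hypoxia arrays lay clear of the normoxia arrays. Without 1 array Prss23 kept its call only when hypoxia replicate 2 was left out (adjusted p from 0.036 to 0.11 over the 8 omissions), and Adam23 lost it in each case (0.076 to 0.17). Gene-median centring, which removes the common shift, left both uncalled (adjusted p = 0.090 and 0.22).

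Of 10 plasminogen activators, receptors and partners none was called. Without adjustment Plat was higher and Plau and Plaur were lower at 0.05. Anxa2 and S100a10, which together form a plasminogen receptor on many cells, had log2 fold changes of 0.20 (adjusted p = 0.31) and -0.08 (adjusted p = 0.75). Of 9 inhibitors of plasminogen activation and plasmin none was called, and 0 passed 0.05 without adjustment. Serpinb6a was at -0.10, and Serpine2 (protease nexin 1, an inhibitor of urokinase and thrombin) at -0.01.

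Of 17 secreted metalloproteinases limma called none, and the log2 fold changes ranged from -0.60 (Mmp9, gelatinase B) to 0.61 (Mmp3). Mmp9 was dim, with a mean level above that of 64.2% of the receptor genes. Without adjustment 4 of the 17 passed 0.05 on each side, where 3.05% of all genes did on the higher and 20.3% on the lower side. Mmp23 was at -0.30 (adjusted p = 0.19). Of 6 membrane-type enzymes none was called. Mmp16, a membrane-type enzyme related to Mmp14, came close, with 4.03, 4.46, 4.13 and 3.99 in normoxia and 4.94, 4.62, 5.02 and 5.00 in hypoxia. All hypoxia arrays lay above all normoxia arrays in this gene. The log2 fold change of Mmp16 was 0.74 ± 0.15 (adjusted p = 0.054). Mmp16 passed the threshold under 6 of the 16 limma alternatives on log2 values and missed it under 10 (adjusted p from 0.022 to 0.17). Among these, it passed in 0 of the 8 fits without 1 array (adjusted p from 0.051 to 0.16). Its mean level of 4.52 lay above that of 89.1% of the receptor genes.

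Of 8 metalloproteinase inhibitors none was called, and the 2 on the lower side that passed 0.05 without adjustment were Timp4 (-0.51, adjusted p = 0.10) and Spock3 (-0.42, adjusted p = 0.11). Of the receptor genes 89.1% and 76.5% lay below them. Of 24 ADAM and ADAMTS genes 20 had negative fold changes, with a median of -0.23, close to that of all genes, and Adam23 was the only call. Adam9 was at -0.11 and Adamts1 at -0.04, and both turned positive with gene-median centring. Of 25 other pericellular proteases and partners Bsg rose and Prss23 fell, while Itgb1 and Pcolce were at -0.14 and -0.07.

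**Figure D4:**
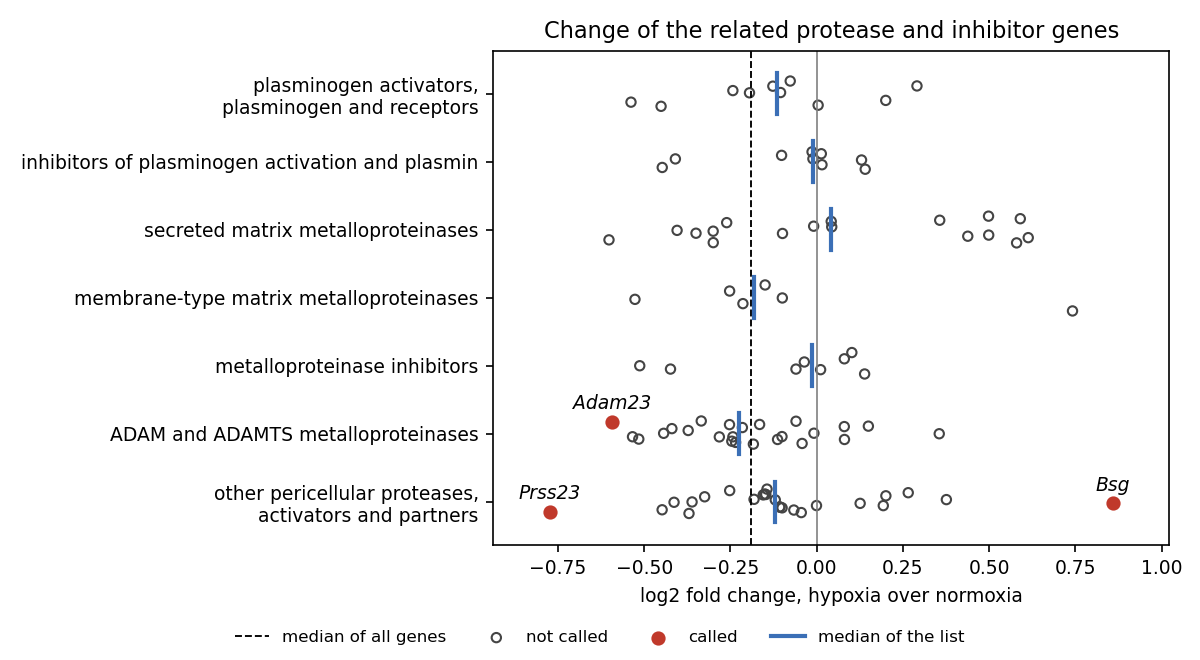
Log2 fold change (hypoxia over normoxia, x axis) of 99 genes in 7 lists, with filled red points for genes called by limma, open points for the others, a blue bar at the median of each list and a dashed line at the median of all genes. Bsg stands apart on the right and Prss23 on the left, and the secreted metalloproteinases spread from -0.60 to 0.61.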

How the data were processed

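The deposited table held summarized probe set intensity values on a linear scale for 8 arrays. The values ran from 0.794 to 8358. The authors' background correction, normalization and summarization of these intensity values were not given in the sources used here. Amplification started from 50 ng of RNA. Values were used on the log2 scale without a pseudocount or further scaling, since array medians lay between 2.38 and 2.44. Rows were named through the platform annotation (307991 with 1 gene, 7047 with several, 326092 unnamed here), and old symbols were updated through RefSeq synonyms (17794 current, 3840 updated, 208 kept). The 2 groups were set against each other by moderated linear models (limma 3.58.1, lmFit and eBayes, R 4.3.3; two-sided, threshold 0.05), and the steps were tested on simulated data. Genes named were the 9 members, the called genes and the 2 uncalled genes of highest mean level of each list, and the genes most like Mmp3. Mmp9, Mmp16, Timp4, Spock3 and Krt19 were named after their values were seen. The members, lists and tests were chosen with earlier results of these data known. Alternatives covered scaling, the filter, the gene summary, the variance model, the replicate block and leaving out each array. No batch was given. The methods call the replicates biological, and p-values measure the spread between these arrays. The number of arrays limits precision. Figures were drawn with matplotlib 3.10.9.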

Additional observations from a re-analysis of the deposited data

Results flagged for a closer look

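Normoxia replicate 1 stood apart in Mmp3, at 3.50 against 4.12 to 4.17 on the other normoxia arrays, and normoxia replicate 2 stood apart in Timp1, at 9.11 against 8.82 to 8.86. In each case the gap to the nearest array took up most of the range of the group (0.92 and 0.86 of it). Such gaps were sought in both groups for the 9 genes and the 3 called list genes, 24 groups in all, of which 2 were marked, and chance marks about 1 in 20.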

How the results depend on the processing

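None of the 9 genes passed the threshold under any alternative run, and Plau, Plaur, Plat, Mmp2, Mmp3, Timp1 and Timp3 kept their direction throughout. The lowest adjusted p reached was 0.072 for Mmp3 and 0.078 for Plau, and the highest for these genes were 0.39 and 0.51. With gene-median centring the adjusted p was 0.51 for Plau, 0.53 for Plaur and 0.69 for Mmp2. Mmp14 turned positive with gene-median centring (0.088), which was chosen after seeing the data. Timp2 turned negative with the median of rows (-0.068), and without 1 array it ran from -0.044 to 0.13. Single rows were refitted with all rows tested and with the replicate block, which called 0 member rows (lowest adjusted p 0.24 and 0.31).

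Over all genes 100 were higher and 151 lower. The higher count moved to 38 on relative ranks, 216 with no filter and 34 with the replicate block, and to 51 to 67 without 1 array (fewest without normoxia replicate 3). The lower count moved to 45 with quantile normalization, 29 with cyclic loess, 16 on relative ranks, 252 with no filter, 232 with the stricter filter, 25 with the median of rows, 411 with trend and robust fitting, 3 with the replicate block, 8 with gene-median centring and 6 to 39 without 1 array (fewest without normoxia replicate 4). The split of higher against lower calls was thus 100 to 151 as deposited, 125 to 45 with quantile normalization, 137 to 29 with cyclic loess and 141 to 8 with gene-median centring. The cause was not tested.

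Among the list genes, 1 higher and 2 lower as deposited, the higher count was 2 with quantile normalization, cyclic loess, no filter, the stricter filter, trend and robust fitting and gene-median centring, and 0 on relative ranks and with the replicate block. It was 1 without any 1 array. The lower count was 1 with quantile normalization and with cyclic loess, 4 with trend and robust fitting, and 0 on relative ranks, with the median of rows, the replicate block and gene-median centring. Without 1 array it was 0 to 1.

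Uncalled genes near 0 changed sign. With gene-median centring Adam9 was at 0.074, Adamts1 at 0.15, Serpinb6a at 0.086, Serpine2 at 0.17, Itgb1 at 0.044, Pcolce at 0.12 and S100a10 at 0.11. With quantile normalization and cyclic loess Adamts1 was at 0.033 and 0.077 and Serpine2 at 0.031 and 0.07. With the median of rows Serpinb6a was at 0.047, Serpine2 at 0.091 and S100a10 at 0.065, and with the stricter filter S100a10 was at 0.015. On relative ranks, in percentile points, Adamts1 was at 0.47 and Itgb1 at 0.20. Without 1 array Adamts1 ran from -0.11 to 0.052, Serpine2 from -0.070 to 0.042 and S100a10 from -0.15 to 0.011.

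The replicate numbers did not pair the arrays (correlations of same-numbered deviations -0.12 to 0.07), so calls lost under the block are not read as weaker effects. Gene-median centring moved the median of all genes from -0.19 to -0.0028, quantile normalization to -0.11 and cyclic loess to -0.05.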

Other observations

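The metalloproteinase genes that lie beside Mmp3 on chromosome 9 had mostly positive fold changes, a pattern seen in the values first and given here as a description with no test. In the order of the RefSeq gene table the log2 fold changes were 0.59 for Mmp13 (a collagenase), 0.36 for Mmp12 (macrophage elastase), 0.58 for Mmp1b, 0.61 for Mmp3, 0.50 for Mmp1a, 0.44 for Mmp10 (stromelysin 2), 0.50 for Mmp8 (neutrophil collagenase), 0.04 for Mmp27, -0.10 for Mmp20 (enamelysin, of tooth enamel) and 0.04 for Mmp7 (matrilysin). Of these 10 genes 9 were positive, with a median of 0.47, against 24.4% of all genes and 46.1% of the smell and pheromone receptor genes. The first 7 in that order, from Mmp13 to Mmp8, held all the larger values. Of the 13 other listed metalloproteinase genes 1 was positive, Mmp16, and their median was -0.26.

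No gene of the 10 was called (limma, lowest adjusted p 0.10), and 4 had an unadjusted p under 0.05, all on the higher side, where 3.05% of all genes did. With no filter on dim rows all 10 were positive, with a median of 0.30, where 43.1% of all genes were positive. With the stricter filter 6 genes were left, 4 of them positive. All 10 were dim, with mean log2 levels of 2.64 to 4.29, all below the 95th percentile of the receptor genes (5.36), and the receptor genes themselves had a median log2 fold change of -0.03. Mmp1b rested on 1 row, Mmp1a, Mmp27 and Mmp7 on 2 each, and Mmp8 and Mmp20 on 3 each.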
